A study of Mus musculus with 8 samples.

Results

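The 9 genes described here are regulators and markers of primordial germ cells, the embryonic founders of sperm and egg: Prdm1, Tfap2c, Prdm14, Dppa3, Nanos3, Dnd1, Kit, Dazl and Ddx4. They were taken by symbol from a table of 14954 genes, and all 9 had a row. Prdm1 and Tfap2c were chosen by their measured log2 difference, higher after Bcl6 induction in these same libraries. That difference is therefore given as a description, without a test. The other 7 were added by name, with results of the same comparison known, and the question put to them was whether they were higher in the same cultures.

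RNA had been sequenced from 8 cultures at day 12 of differentiation from mouse embryonic stem cells toward cortical progenitors. All came from the A2 lox.Cre Bcl6 line, in which Bcl6, a transcriptional repressor, is switched on by doxycycline. All were grown from day 2 with 400 ng/ml cyclopamine, a blocker of hedgehog signalling, and returned to plain medium after 10 days. The 4 control cultures received DMSO and the 4 Bcl6-induced cultures 1 µg/ml doxycycline, each for 24 h. Both groups carried the transgene, no doxycycline control without it was among the samples, and the stem cells had been kept on mouse fibroblast feeders. Each group is 4 differentiations, numbered 1 to 4, of 1 line. Whether the 4 were separate cultures from the start is not said, so the p-values rest on library-to-library spread that may be technical.

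Primordial germ cells are set aside in the early embryo when bone morphogenetic protein signals reach the epiblast. Prdm1 (also called Blimp1), Prdm14 and Tfap2c then form a small network of DNA-binding factors that silences the somatic programme and restores genes of pluripotency. Nanos3, Dnd1 and the receptor Kit keep the cells alive as they migrate, and Dazl and Ddx4, both RNA-binding proteins, mark germ cells around their arrival in the gonad. Several of these genes, among them Prdm14, Dppa3 and Tfap2c, are also active in pluripotent stem cells. In germinal centre B cells Bcl6 is known as a repressor of Prdm1.

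Promoter sequence is shown for 3 members. Prdm1 is shown as a known target of Bcl6 in B cells, and Nanos3 and Kit because their windows hold the letters of the core bound by AP-2 factors such as Tfap2c. RefSeq (GRCm38.p6, the mm10 build) gave a promoter for 5 of the 9 genes, Prdm1, Nanos3, Kit, Dazl and Ddx4. The stretches lie within the 250 bases before the RefSeq start and outside the exons of the gene, and those of Prdm1 and Nanos3 fall inside the longer gene span that GENCODE gives. Each is written 5′ to 3′ on the strand of the gene, and capitals mark matches to the motifs searched.
Prdm1, chr10:44458749-44458998, minus strand: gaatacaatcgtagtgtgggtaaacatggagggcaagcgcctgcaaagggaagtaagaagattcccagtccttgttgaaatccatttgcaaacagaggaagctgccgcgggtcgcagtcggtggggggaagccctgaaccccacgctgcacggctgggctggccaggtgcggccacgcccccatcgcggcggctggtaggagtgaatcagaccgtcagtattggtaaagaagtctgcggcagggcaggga
Nanos3, chr8:84176553-84176802, minus strand: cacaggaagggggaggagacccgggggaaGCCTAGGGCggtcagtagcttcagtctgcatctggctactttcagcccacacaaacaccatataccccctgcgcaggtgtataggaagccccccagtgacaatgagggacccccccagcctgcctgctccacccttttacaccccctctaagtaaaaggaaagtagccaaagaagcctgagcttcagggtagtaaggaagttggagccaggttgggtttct
Kit, chr5:75574737-75574915, plus strand: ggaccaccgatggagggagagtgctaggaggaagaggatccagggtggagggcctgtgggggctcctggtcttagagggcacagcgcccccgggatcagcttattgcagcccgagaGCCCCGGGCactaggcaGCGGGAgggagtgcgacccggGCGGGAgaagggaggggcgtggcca

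4 motifs were searched on both strands of the whole 250 bases: TTCNNNGAA, the core of the Bcl6 site; GCCNNNGGC, the AP-2 core; CACGTG, an E-box bound by Max and Mga; and TCCCGC, an E2f6 core. Max, Mga and E2f6 belong to complexes known to silence germ cell genes in other cells. Of all 32851 RefSeq windows, 7.0% held the Bcl6 core, 13.7% the AP-2 core, 6.0% the E-box and 16.9% the E2f6 core. None of the 5 member windows held the Bcl6 core. RefSeq gave 2 windows for Kit, and only the first was searched and is described here. Sequence outside the windows, introns included, was not searched, so this does not tell whether Bcl6 has sites elsewhere in these genes. The AP-2 core began 221 bases before the start in Nanos3 and 134 bases before it in Kit. Kit also held 2 matches to the E2f6 core, and Ddx4 held 1 match to it and 1 E-box. The promoters of Ddx4, Dazl, Kit and Prdm1 were rich in CpG, with 31, 20, 17 and 15 CpG sites in the 250 bases against a median of 6 over all windows, whereas Nanos3 had 3. A match describes letters and not a bound site.

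All 9 genes were already read in the control cultures, and all 9 had a higher mean after Bcl6 induction. Prdm1 and Tfap2c had been chosen for being higher, and 55.4% of all genes had a positive log2 difference. Levels below are in CPM, the usual scale for a gene's share of all reads in its library. Of the 7 genes added by name, 4 passed the test in the fit over all genes (Nanos3, Kit, Dppa3 and Dnd1), all higher, and Dazl, Ddx4 and Prdm14 did not pass. The test was limma on log2(value + 1) with Benjamini-Hochberg adjustment over the whole table, called at an adjusted p under 0.05, and 4.55% of all genes were called higher (6.81% in either direction, 2.26% lower). None of the 7 was lower by limma, whether at an adjusted or an unadjusted p, or by limma's voom weighting. All 4 induced libraries lay above all 4 controls in the same 4 of the 7, and in 10.8% of all genes (6.32% had every induced library below every control). Because the list was drawn up with this comparison in view, nothing is read from any of these counts. Prdm1 and Tfap2c, chosen by this difference, did not overlap between the groups either.

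**Figure D1:**
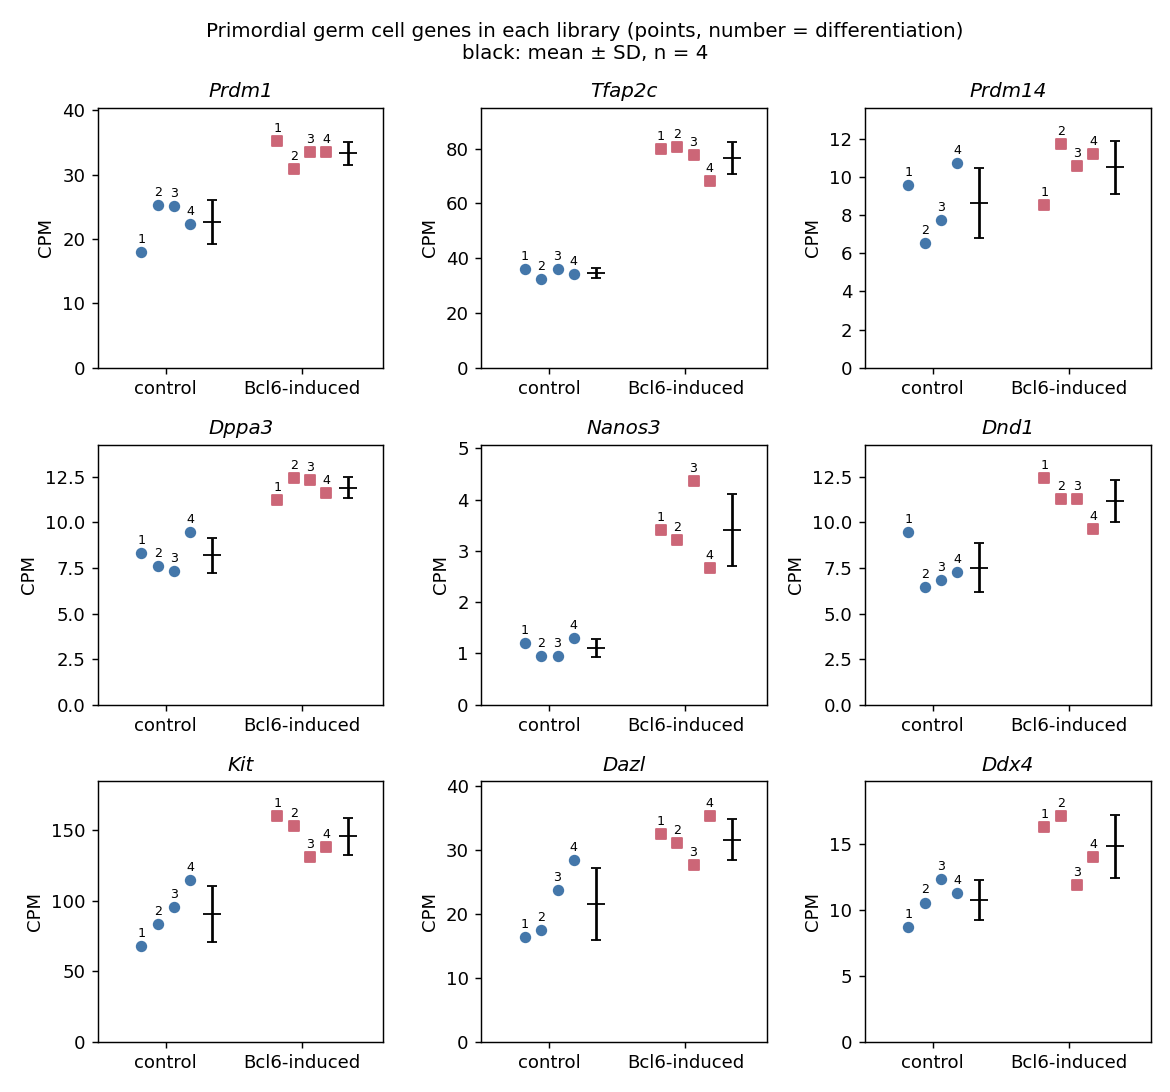
Level of each of the 9 genes in CPM (vertical axes, from 0) in the 4 control (circles) and 4 Bcl6-induced libraries (squares), numbered by differentiation, with the mean ± SD in black. Tfap2c and Nanos3 show the widest separation of the groups, and the groups overlap for Prdm14, Dazl and Ddx4.

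Among the specification factors, Tfap2c, an AP-2 transcription factor (ENSMUSG00000028640, chromosome 2, 172549593 to 172558622, mm10), stood at 36.1, 32.5, 36.1 and 34.2 CPM in controls 1 to 4. In induced libraries 1 to 4 it stood at 79.8, 80.7, 77.8 and 68.2 CPM. The lowest induced library was far above the highest control. The mean was 34.7 ± 1.75 CPM in DMSO and 76.6 ± 5.73 CPM with doxycycline (SD, n = 4 each), a log2 difference of 1.14 ± 0.08 (SE) and 2.21 times the control level.

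Prdm1, a zinc-finger repressor (ENSMUSG00000038151, chromosome 10, 44437177 to 44528501), stood at 17.9, 25.3, 25.1 and 22.4 CPM in controls 1 to 4. In induced libraries 1 to 4 it stood at 35.2, 30.9, 33.5 and 33.6 CPM. The groups did not overlap, and the induced libraries were closer together than the controls. The means were 22.7 ± 3.43 and 33.3 ± 1.78 CPM (SD, n = 4 each), a log2 difference of 0.57 ± 0.12 (SE), or 1.47 times the control level. Without control 1, the lowest library, the log2 difference was 0.46. The known direction of Bcl6 on Prdm1 in B cells, repression, is opposite to the direction of these means.

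Prdm14, the PR-domain factor of germ cells and naive stem cells (ENSMUSG00000042414, chromosome 1), stood at 9.57, 6.56, 7.73 and 10.7 CPM in controls 1 to 4 and at 8.52, 11.7, 10.6 and 11.2 CPM in induced libraries 1 to 4. Induced library 1 lay below controls 1 and 4, so the groups overlapped. The log2 difference was 0.30 ± 0.17 (SE, n = 4 each) (limma adjusted p = 0.32). Prdm14 was not called under any of the 17 alternatives, and its log2 difference stayed between 0.17 and 0.41.

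Nanos3 (ENSMUSG00000056155, chromosome 8, 84173731 to 84185217), an RNA-binding protein that protects migrating germ cells from death, rose most of the 9 in proportion. It stood at 1.202, 0.95, 0.95 and 1.30 CPM in controls 1 to 4 and at 3.41, 3.21, 4.36 and 2.66 CPM in induced libraries 1 to 4. Every induced library exceeded the highest control by more than the whole spread of the controls. The means were 1.10 ± 0.18 and 3.41 ± 0.71 CPM (SD, n = 4 each), a log2 difference of 1.58 ± 0.22 (SE) (limma adjusted p = 0.0035). These levels rested on 11, 9, 9 and 12 reads in the controls and 51, 35, 49 and 27 in the induced libraries, as recovered from the scaled values. Its call held without any single library (limma adjusted p of at most 0.021).

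Kit (ENSMUSG00000005672, chromosome 5, 75574916 to 75656722) encodes the receptor for stem cell factor. Controls 1 to 4 held 68.0, 83.1, 95.3 and 114.7 CPM, and induced libraries 1 to 4 held 160.0, 152.9, 130.7 and 137.9 CPM. Control 4 came closest to the induced libraries, and the groups did not overlap. Kit rose from 90.3 ± 19.7 to 145.4 ± 13.4 CPM (SD, n = 4 each), a log2 difference of 0.71 ± 0.14 (SE) (limma adjusted p = 0.015). The call was lost on leaving out control 2 or either of induced libraries 1 and 2 (limma adjusted p of up to 0.06). Its ligand gene Kitl was at 40.9 and 40.6 CPM in the means of the groups (limma adjusted p = 0.99).

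Dnd1 (ENSMUSG00000044595, chromosome 18), an RNA-binding partner of Nanos proteins that germ cells need to survive, stood at 9.47, 6.46, 6.82 and 7.27 CPM in controls 1 to 4. Induced libraries 1 to 4 held 12.4, 11.3, 11.3 and 9.62 CPM. Control 1 nearly reached induced library 4, without overlap. Dnd1 rose from 7.51 ± 1.35 to 11.1 ± 1.15 CPM (SD, n = 4 each), a log2 difference of 0.58 ± 0.15 (SE) (limma adjusted p = 0.042). That call was lost in 6 of 8 single leave-outs (controls 2, 3 and 4 and induced libraries 1, 2 and 3), with adjusted p values of up to 0.15 (limma), and under upper quartile scaling (0.061). An exon of Wdr55 overlaps Dnd1 on the opposite strand, and whether counting used the strand is not given in the sources used here, so reads there are uncertain. Wdr55 itself was at 63.5 and 63.8 CPM in the means of the groups (limma adjusted p = 0.97).

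Dppa3, also called Stella, a maternal and germ cell factor that guards DNA methylation in the zygote (ENSMUSG00000046323, chromosome 6, 122626410 to 122630272), stood at 8.32, 7.61, 7.32 and 9.47 CPM in controls 1 to 4. In induced libraries 1 to 4 it stood at 11.2, 12.4, 12.3 and 11.6 CPM. The groups did not overlap, and the lowest induced library exceeded the highest control. Dppa3 rose from 8.18 ± 0.96 to 11.9 ± 0.57 CPM (SD, n = 4 each), a log2 difference of 0.54 ± 0.12 (SE) (limma adjusted p = 0.024). Its call was lost without control 2 or induced library 1, 2 or 3 (limma adjusted p of up to 0.086). The transcripts of Dppa3 and Dnd1 each share over 95% identity with a pseudogene (98.2% over 451 bases with Dppa3-ps, 96.5% over 346 bases with Dnd1-ps), so their reads may be shared.

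The later germ cell genes were read at moderate levels in both groups. Dazl (ENSMUSG00000010592, chromosome 17, 50279395 to 50293636), a translational regulator of germ cells, stood at 16.4, 17.4, 23.6 and 28.4 CPM in controls 1 to 4 and at 32.4, 31.1, 27.6 and 35.3 CPM in induced libraries 1 to 4. Induced library 3 lay just below control 4, and the other 3 induced libraries were above every control. The log2 difference was 0.59 ± 0.17 (SE, n = 4 each), about that of Prdm1, with a wider spread among the controls (limma adjusted p = 0.059). Dazl was called without control 4 (adjusted p = 0.02 by limma), with array weights (0.045) and by voom on the recovered reads (0.049).

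Ddx4, the helicase also called Vasa (ENSMUSG00000021758, chromosome 13, 112598333 to 112652475), stood at 8.72, 10.6, 12.3 and 11.3 CPM in controls 1 to 4. Induced libraries 1 to 4 held 16.3, 17.1, 11.9 and 14.04 CPM. Induced library 3 lay below control 3, while induced libraries 1 and 2 were the highest of the 8. The log2 difference was 0.46 ± 0.15 (SE, n = 4 each) (limma adjusted p = 0.091), and the only one of 17 alternatives that called it was array weights (0.037).

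**Figure D2:**
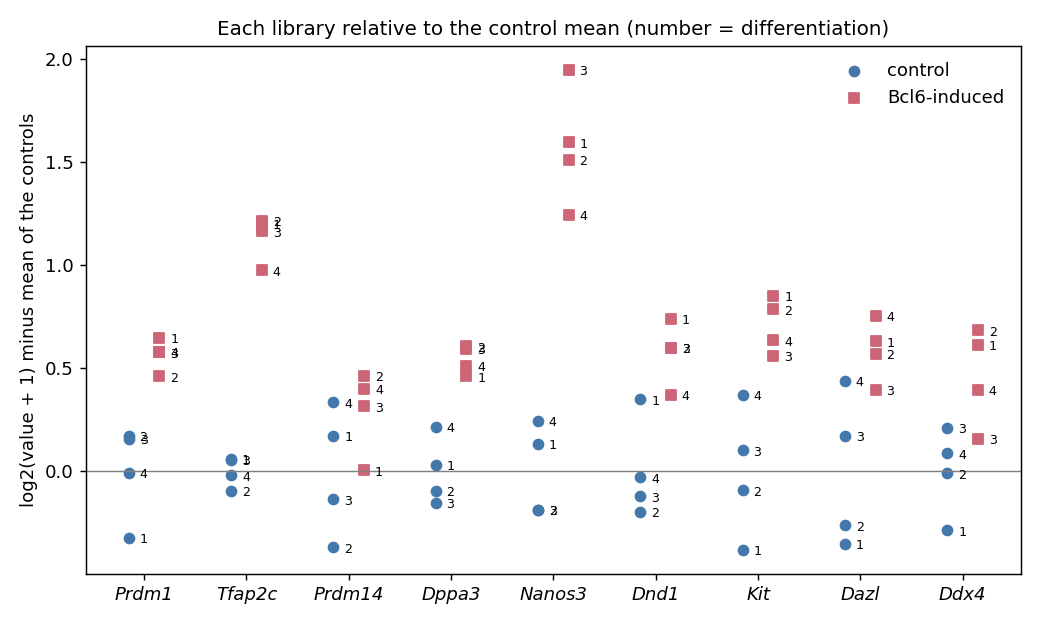
Each library's log2(value + 1) minus the mean of the 4 controls (vertical axis) for the 9 genes, with controls as circles, induced libraries as squares and the differentiation number beside each point. The induced points of Nanos3 lie between 1.24 and 1.95 and those of Tfap2c between 0.98 and 1.22, above those of the other 7 genes.

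The median log2 difference was 0.58 over the 7 genes added by name and 0.03 over all genes, and nothing is read from the contrast, since the list was drawn up with this comparison known. All 9 differences kept their sign in each of the 8 single leave-outs and in the other alternatives run, both rescalings included. The induced libraries were not ranked alike by these genes. Library 1 was highest for Prdm1, Dnd1 and Kit, library 2 for Tfap2c, Prdm14, Dppa3 and Ddx4, library 3 for Nanos3 and library 4 for Dazl.

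Control 1 stood apart from the other controls along transcript length. Relative to the other 3 controls, its median log2 difference was 0.40 in the tenth of genes with the shortest merged exons and -0.47 in the tenth with the longest. Among the 9 genes, control 1 differed from the other controls by -0.51 for Kit and -0.43 for Prdm1, the 2 members with the longest merged exons (8911 and 5579 bases). It also read lower for Dazl (-0.47) and Ddx4 (-0.38), higher for Dnd1 (0.47), and by 0.23, 0.18, 0.08 and 0.04 for Prdm14, Nanos3, Tfap2c and Dppa3. Without control 1 the same 4 of the 7 genes were called (Dppa3, Nanos3, Dnd1 and Kit), as they were with the trend on transcript length taken off. The log2 difference without it was 0.58 for Kit, 0.47 for Dazl, 0.37 for Ddx4 and 0.69 for Dnd1.

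To compare levels between the 9 genes, CPM was divided by kilobases of merged exons. In the controls Kit (10.1), Tfap2c (9.43) and Dppa3 (9.17) were highest on this scale, and their ranges over the 4 libraries overlapped. Dazl followed at 5.62, below the lowest control of Dppa3. Prdm1 (4.06), Ddx4 (3.56), Prdm14 (3.37) and Dnd1 (3.11) had ranges that overlapped one another, and that of Prdm1 also reached into the range of Dazl. Nanos3 was lowest at 1.19, with its highest control (1.41) below the lowest of any other member. In the induced cultures Tfap2c was first at 20.8 and its lowest library (18.5) lay above the highest of Kit (17.95). Nanos3 (3.69) there overlapped with Prdm14 (4.10), Dnd1 (4.62) and Ddx4 (4.93).

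**Figure D3:**
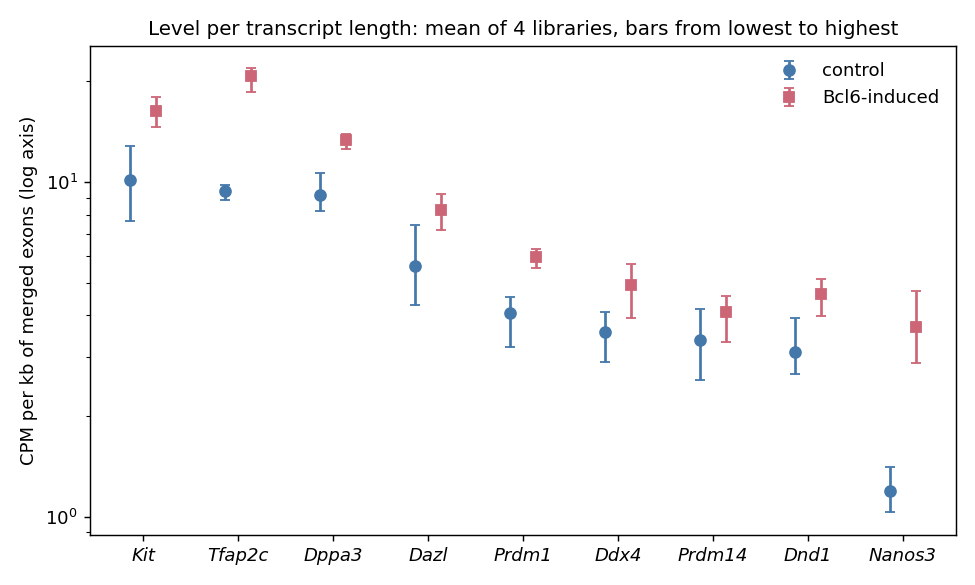
Mean level of each gene per kilobase of merged exons (vertical log axis) in control (circles) and Bcl6-induced cultures (squares), with bars from the lowest to the highest of 4 libraries, ordered by the control level. Tfap2c moves from 9.43 to 20.8 and Nanos3 from 1.19 to 3.69.

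The genes with the most similar profile were sought by the root mean square difference of centred log2 values over the 8 libraries, among 14877 genes of at least 1 CPM. The shared group difference enters this measure. The nearest to Prdm1 were Trim36 (0.06), Mpeg1 (0.073), Plcb4 (0.084), Erc1 (0.088) and Lrrk2 (0.091), all in log2 units. For Tfap2c they were Unc5b (0.117), Pdgfb (0.121), Gm11914 (0.121), Dgkk (0.125) and Slc30a2 (0.126). Neither member was among the nearest of the other. The unlike size of their log2 differences (1.14 and 0.57) alone keeps them apart on this measure, so nothing is read from that. Dazl had as neighbours AU018091 (0.08) and the stem cell factors Tbx3 (0.088) and Zfp42 (0.102), and the 3 nearest to Nanos3 were Scara5 (0.234), Samd9l (0.25) and T (0.268), which were less close. The nearest for the rest were Itgb7, Lgals3 and Tex19.1 for Prdm14, Usp27x, Mbp and Krt8 for Dppa3, Cxx1c, Zfp467 and Fam43a for Dnd1, Flnc, Ptpn14 and Rusc2 for Kit, and Pura, Dnajc6 and Zfp185 for Ddx4 (0.046 to 0.105).

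Other genes of germ cell formation were counted over whole lists, by role, in the same fit. Of 14 signals and competence factors that precede germ cell fate, 3 rose and 1 fell. At an unadjusted p under 0.05 limma gave 3 higher and 3 lower, and voom called 3 higher and 2 lower. The mesodermal factor T (Brachyury) rose from 20.9 ± 3.13 to 59.9 ± 2.29 CPM (log2 difference 1.53 ± 0.11, limma adjusted p = 0.00011, n = 4 each). The ligand Bmp4 rose from 11.5 ± 1.84 to 17.4 ± 1.21 CPM (0.60 ± 0.13, limma adjusted p = 0.021), and Eomes, a T-box factor, rose as well (0.93 ± 0.09). Otx2, known to oppose germ cell fate in the epiblast, fell from 218.5 ± 14.8 to 160.8 ± 5.10 CPM (-0.44 ± 0.07, limma adjusted p = 0.0055). It is also counted below among the cortical progenitor markers that fell. T, Eomes and Otx2 were called in all 8 single leave-outs, and Bmp4 lost its call without control 2 or induced library 1 or 2 (limma adjusted p of up to 0.079). The signal genes Wnt3 and Smad5 were also lower without passing (-0.68 ± 0.19 and -0.29 ± 0.09, limma adjusted p = 0.056 and 0.084). The lower count was 2 without control 1 or induced library 4. Which cells of the cultures held these transcripts was not tested.

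Of 25 early germ cell and pluripotency genes, 7 rose and none fell (Nanog, Esrrb, Sall4, Dppa4, Zfp42, Mybl2 and Klf2), with a list median of 0.28. At an unadjusted p under 0.05 limma gave 14 higher and 1 lower, and voom called 7 higher and none lower. Nanog rose from 172.2 ± 13.1 to 233.5 ± 7.002 CPM (0.44 ± 0.07, limma adjusted p = 0.0059, n = 4 each). Pou5f1, needed by both stem cells and germ cells, was at 538.2 ± 65.7 and 443.4 ± 42.0 CPM (limma adjusted p = 0.13). The early markers Alpl and Ifitm3 did not pass (log2 differences -0.12 and 0.36, limma adjusted p = 0.37 and 0.16). The 7 calls became 1 on leaving out control 2 or either of induced libraries 1 and 2, 3 on leaving out induced library 3, and 11 on leaving out control 1. Nanog was called in all 8 single leave-outs.

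Of 37 measured late germ cell, piRNA and meiosis genes, 3 rose and 1 fell, with a list median of 0.27, and 30 of the 37 had a positive difference against 55.4% of all genes. The lists were chosen with earlier results of these data known, so nothing is read from that contrast. Tdrd5, a Tudor protein of the piRNA pathway, rose from 14.9 ± 3.14 to 32.1 ± 2.70 CPM (1.123 ± 0.15, limma adjusted p = 0.0027, n = 4 each). The other 2 were Dnmt3l and Zfp42, and the member that fell was Tdrkh (-0.49 ± 0.09, limma adjusted p = 0.0094). Zfp42 is the same call as in the early germ cell list, and it is also counted among the markers of undifferentiated stem cells. Genes of meiotic chromosomes were not called and ranged widely, from Sycp2 at 0.79 and Smc1b at 0.41 to Sycp3 at -0.01 and Dmc1 at -0.08 (log2, limma adjusted p = 0.20, 0.12, 0.98 and 0.86). The higher calls of this list numbered 1 without induced library 1 or 2, and 2 without control 2 or induced library 3 or 4. No row was held by 11 genes of this list, among them Piwil1, Piwil4 and Spo11.

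Of 10 measured migration and survival genes 2 rose, Cdh1 (0.50 ± 0.08, limma adjusted p = 0.0081) and Cxcl12 (0.43 ± 0.08, limma adjusted p = 0.013), and Cxcl12 lost its call without induced library 1 or 2 (adjusted p of up to 0.058 by limma). None fell, against 2 at an unadjusted p under 0.05 by limma and none by voom. Array weights gave 2 lower calls of migration and survival genes, removal of the length trend 1, and the single leave-outs up to 1. No gene of 22 repressors of germ cell genes was called in the main limma fit or by voom, with a median of 0.00, and limma gave 3 higher and 1 lower at an unadjusted p under 0.05. Array weights called 2 of the repressors higher and 3 lower. Leaving out control 1 gave 1 higher call, and removal of the length trend gave 1 lower call. Among 11 other Prdm genes none rose (1 at an unadjusted p under 0.05 by limma, 1 by voom) and Mecom fell (-0.80 ± 0.14, limma adjusted p = 0.0088). A minimum mean of 100, array weights and leaving out induced library 3 each gave 1 higher call of these Prdm genes. Of the other AP-2 genes, Tfap2a and Tfap2b had a row, and Tfap2b rose from 30.02 ± 4.44 to 55.3 ± 9.51 CPM (0.88 ± 0.14, limma adjusted p = 0.0051, n = 4 each). Tfap2a rose from 5.11 ± 0.33 to 7.42 ± 0.86 CPM (limma adjusted p = 0.044), a call that was lost in 7 of 8 single leave-outs. Of 12 measured genes around Bcl6 and Prdm1 in B cells, only the plasma cell marker Sdc1 was called, lower (-0.34 ± 0.09, limma adjusted p = 0.045), and not in 6 of 8 single leave-outs. None of the 12 was called higher in the main limma fit or by voom (1 at an unadjusted p under 0.05 by limma). Array weights and leaving out control 1 each gave 1 higher call among the 12.

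**Figure D4:**
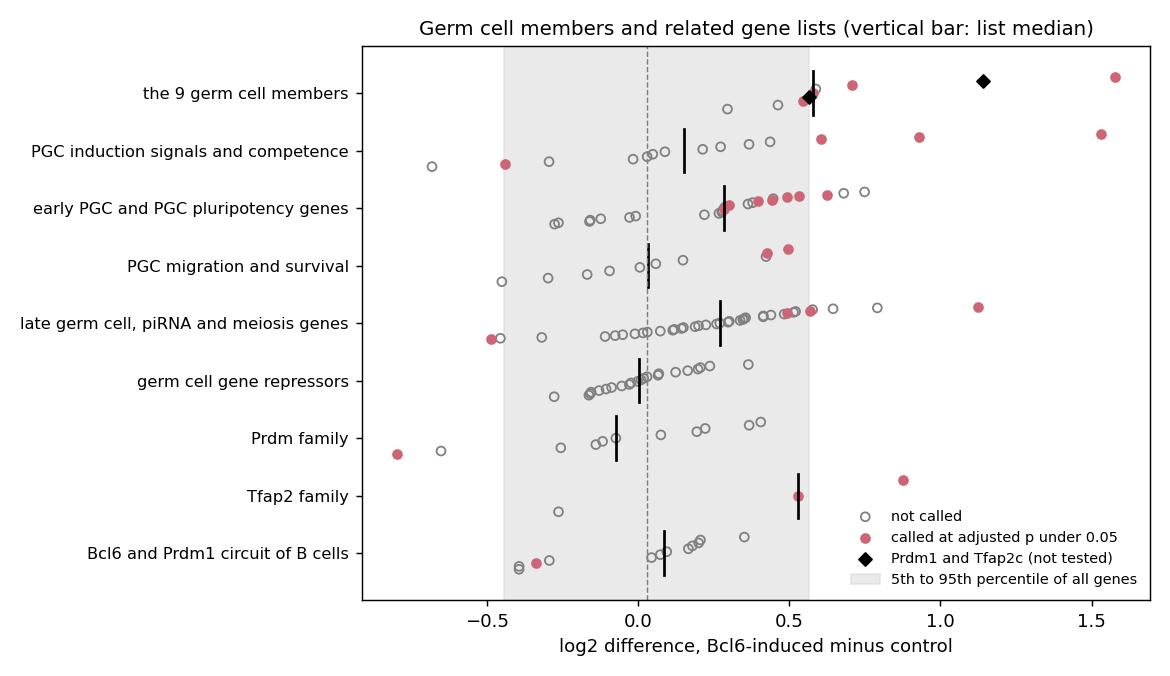
Log2 difference, induced minus control (horizontal axis), of each gene in the 9-member set and in 8 related lists, with filled points for genes called at an adjusted p under 0.05, diamonds for Prdm1 and Tfap2c and a bar at each median. The grey band spans the 5th to 95th percentile of all genes (-0.44 to 0.56), and the medians are 0.58 for the 9 genes (Prdm1 and Tfap2c, chosen by this value, included), 0.28 and 0.27 for the early and late germ cell lists and 0.00 for the repressors.

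Markers of other cells that use the same genes were counted beside the 9. Of 11 markers of undifferentiated stem cells 5 rose and 1 fell, and 6 of the 11 are also in the early germ cell list. Their summed level was 2135 to 2264 CPM in the controls and 2034 to 2331 CPM after induction, so the sums overlapped. The 5 higher calls became 2 on leaving out control 2 or either of induced libraries 1 and 2, and 3 on leaving out induced library 3 or 4. Tdgf1, a co-receptor of Nodal signalling, fell from 814.8 ± 62.9 to 605.1 ± 38.6 CPM (-0.43 ± 0.08, limma adjusted p = 0.012, n = 4 each). Of 12 measured trophoblast markers 5 rose and none fell (limma, 2 lower at an unadjusted p under 0.05, none by voom), with sums of 363 to 452 and 520 to 594 CPM. The 5 were Cdx2, Krt8, Krt18, Plet1 and Tfap2a. Krt8 and Krt18 had the highest levels of the list (161.9 and 149.2 CPM in the control means) and are also counted as surface ectoderm markers. Tfap2a is also counted as a neural crest marker. Cdx2, a trophectoderm and posterior factor, rose from 1.30 ± 0.57 to 9.48 ± 1.80 CPM (limma adjusted p = 0.0022, n = 4 each), while Elf5 and Tpbpa had no row. The trophoblast calls numbered 2 without control 2 or 3 or induced library 1 or 2, and 3 without induced library 3.

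Of 8 measured surface ectoderm markers 5 rose and none fell (also none at an unadjusted p under 0.05 by limma, or by voom), with sums of 714 to 831 and 948 to 1081 CPM, while Krt5, Krt14, Krt15 and Krt17 had no row. Among the 5, Krt8 and Krt18 are the same calls as in the trophoblast list, and Cdh1 is the same as in the migration list. The markers of blood and mast cells, which use Kit, summed to 25.2 to 30.9 and 31.3 to 40.6 CPM, with none of 6 called in the main limma fit (3 higher at an unadjusted p under 0.05, 1 higher by voom) and no row for Ptprc, Gata1 or Cpa3. A pseudocount of 5, a replicate block and removal of the length trend each gave 1 higher call of these markers. Array weights gave 2, and the single leave-outs up to 1. Of 3 melanoblast markers with a row only Ednrb was called, lower, and not without control 2 or induced library 1 (limma adjusted p of up to 0.057). Their sums were 61.9 to 81.7 CPM in the controls and 23.9 to 45.0 CPM in the induced cultures, and Dct, Tyr and Tyrp1 had no row. None of 9 feeder fibroblast markers was called in the main limma fit or by voom (2 higher and 3 lower at an unadjusted p under 0.05 by limma), with sums of 563 to 725 and 611 to 754 CPM. Either scaling, a minimum mean of 100 and array weights each gave 1 lower call of feeder markers, and removal of the length trend gave 2. The single leave-outs gave up to 1 call in each direction. Of 10 neural crest markers Tfap2a, Tfap2b and Ets1 rose and Sox9 fell, with no row for Sox10, sums of 129 to 149.5 and 154 to 185 CPM, and the call of Sox9 lost without control 2 or induced library 1 or 2. Of 11 endoderm markers Foxa1 fell, a call lost in 5 of 8 single leave-outs, and none rose (5 higher at an unadjusted p under 0.05 by limma, none by voom), with sums of 126 to 169.9 and 138 to 165 CPM. Array weights gave 3 higher calls of endoderm markers, and a replicate block and removal of the length trend gave 1 each. The part of any of these cells in the levels of the 9 genes was not tested, and in whole cultures more cells of a type and more RNA per cell cannot be told apart.

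The induction itself was seen in every library, with Bcl6 at 6.01 to 7.12 CPM in the controls and 325 to 427 CPM in the induced cultures. Recovered depth was 9.42 to 9.74 M reads in the controls and 10.3 to 15.03 M in the induced libraries, so each control was shallower than each induced library. Of 11 measured cortical progenitor markers 6 fell and 1 rose, and their sum went from 1668 to 2078 CPM in the controls to 1183 to 1512 CPM in the induced cultures. The 6 include Otx2, the same call as in the list of signals and competence factors. The 6 lower calls became 2 on leaving out control 2 or 4 or induced library 1 or 2, and 3 on leaving out control 3.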

How the data were processed

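The authors deposited 1 table of gene values for the series, and per the submitters' processing notes the tools were HTSeq 0.9.1, edgeR 3.20.1 and STAR 2.5.3a on build mm10, listed with neither role nor order. Decimal commas had become column breaks, so the 14954 lines were rejoined by matching each value to its CPM. The authors' own statistics and CPM decimals had lost digits and were not used otherwise. What the authors deposited is treated as a score: reads scaled to a near-equal total per library (19933345 to 19963951) and rounded up, rather than raw counts. They lay on multiples of 1 step per library for at least 99.7% of values under 300, and dividing by it gave the reads behind them. A pseudocount of 1, the variance trend and no covariate were used (limma 3.58.1, R 4.3.3), after a test on simulated data. No filter was applied. The lowest mean in the table was 15.12 scaled reads, so genes below that are not analysed here, and the lowest member, Nanos3, had 45.0. Fold changes on the log2(value + 1) scale understate changes of low genes.

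CPM was computed as value over library total. Merged exon lengths, positions and overlaps came from GENCODE M21 (mm10), pseudogene matches from blastn 2.17.0, and promoters from RefSeq. The members and lists were chosen with earlier results of these data known. Named genes were, by rule, the 9 members, up to 6 called genes and the uncalled gene with the highest CPM of each list, Bcl6, and the nearest profiles (5 for Prdm1 and Tfap2c, 3 for the others). A few further genes, such as Alpl, Ifitm3, Kitl, Wdr55, Klf2, Wnt3, Smad5, Sycp2, Smc1b, Sycp3 and Dmc1, were named after their values were seen. Deviations of same-numbered control and induced libraries correlated at 0.00, 0.00, -0.02 and 0.40, and those of unlike-numbered libraries at -0.36 to 0.35. The numbers were not taken as pairs, though these values do not show that the cultures were unpaired. Alternatives were 2 pseudocounts, 2 scalings, a minimum mean of 100, array weights, a replicate block and each library left out. Voom on the recovered reads and removal of the length trend were added after seeing the data. Tfap4, which stood in the AP-2 list by its symbol, encodes the unrelated AP-4 factor and is not counted in the text, though the plotted list and its median include it.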

Additional observations from a re-analysis of the deposited data

How the results depend on the processing

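The count of the 7 genes called higher was 4, and 1 to 4 over the 8 single leave-outs: 1 (Nanos3) without control 2, induced library 1 or induced library 2, and 2 without induced library 3. It was 3 with upper quartile scaling, 3 with a minimum mean of 100 (where Nanos3 was not tested), 5 by voom and 6 with array weights. Over all genes, 1019 were called (681 higher, 338 lower), and the single leave-outs gave 308 to 1697 (211 to 1146 higher, 93 to 551 lower), highest without control 1 and, past 1.5 times below the main count, without control 2 and induced libraries 1, 2 and 3. Array weights gave 2507 (1643 higher, 864 lower), and the length trend taken off gave 1748, of them 865 lower. Higher against lower calls split 536 to 424 under median-of-ratios scaling and 501 to 474 under upper quartile scaling. With the differentiation number as a replicate block, 827 genes were called, Dazl was called (limma adjusted p = 0.047) and Dppa3 was not (0.052). Deviations of same-numbered libraries did not all correlate, so the numbers are not shown to pair the samples. Of genes not called, Bmpr1a, Trim28 and Epcam, each near 0, changed sign. Bmpr1a was at 0.00 (just below 0 before rounding), -0.02, -0.10 and -0.03 under median-of-ratios scaling, upper quartile scaling, array weights and removal of the length trend, and -0.07 to 0.09 in the single leave-outs. Trim28 was at -0.02 and -0.03 under the scalings, -0.02 with the length trend off and -0.01 to 0.07 in the leave-outs. Epcam was at -0.01 and -0.02 under the scalings and -0.03 to 0.09 in the leave-outs. The list of signals and competence factors had 2 lower calls under median-of-ratios scaling and voom, and 3 under upper quartile scaling, array weights and removal of the length trend. The early germ cell list had 13 higher calls with array weights and 12 with the length trend off, the late list 10 with array weights, and trophoblast markers 3 under either scaling. With the length trend off, the early germ cell list and the trophoblast markers each had 1 lower call. The causes were not tested. Nanos3 rests on 9 to 12 reads per control.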
